A study of Mus musculus with 28 samples.

Results

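The nuclear-encoded subunits of the mitochondrial respiratory chain and ATP synthase were followed here across liver, pancreas and lung of mice that overexpress human APOBEC3B (A3B). Members were chosen by symbol, that is Nduf genes followed by a, b, c, s or v, the 4 Sdh subunits, Uqcr genes, Cox4 to Cox8 genes and Atp5 genes. Of 110 symbols that match these letters, 12 assembly factors and 13 pseudogenes were set aside, which left 85 genes of 35928 in set 2 and the same 85 of 24845 in set 1. Complex I had 36 members, complex II 4, complex III 8, complex IV 20 and complex V 17. Ndufa4 and Ndufa4l2 were counted with complex IV, where the NDUFA4 protein is now placed. Atp5s and Cox7a2l match the letters and stayed members, although they are not usually counted as subunits.

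A3B mice carry a tetO-A3B-tGFP transgene in the ColA1 locus and the CAGs-rtTA3 driver, which is broadly expressed. The transgene was made in KH2 embryonic stem cells, whose M2-rtTA at Rosa26 was removed by breeding. Controls are, per the study's methods, littermates with either the transgene or the driver. Gene positions are those of the GENCODE annotation on GRCm38. Transgene expression was induced by pellets with doxycycline (dox) from 4 weeks of age. Set 1 holds 3 A3B and 3 control livers and 3 A3B and 3 control lungs, and set 2 holds 6 A3B and 2 control livers and 6 A3B and 2 control pancreases, each tissue piece from 1 animal. The labels give 10 days of dox for all of set 2 and 15 days for the controls of set 1. In set 1 they give 14 days for A3B livers 23 and 28, and 10 days for A3B liver 70 and the 3 A3B lungs. Within set 1, A3B thus goes with a shorter time on dox, and the effects of these cannot be told apart. Other sources of the study differ on the controls. Its methods state that control littermates received dox. Its list of mice gives those of set 1 as off dox, except for control 87, and a figure legend calls the pair of control animals of the liver and pancreas comparison undosed, although the list has controls 45 and 168 on dox like the labels. Where controls had no dox, the effects of A3B and of dox itself cannot be told apart. Groups follow the sample titles. The genotype labels differ from them for A3B pancreases 44 and 137, which are labelled with A3B alone, for both control pancreases and set 1 control liver 11, which are labelled with both transgenes. Control lung 87 is labelled with the driver alone. The transgene was measured in set 1, at 705 to 1705 TPM (transcript abundances scaled to the same total in each sample) in A3B livers, 90.6 to 281 TPM in A3B lungs and 0.0928 to 0.526 TPM in the controls.

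Set 2 libraries held 6.52e+07 to 1.19e+08 estimated counts, and the depth of set 1, deposited as TPM, is unknown. Markers of 8 hepatocyte genes summed to 88412 and 147228 TPM in the control livers of set 2 and 36275 to 88693 TPM in its A3B livers, and 12 acinar markers summed to 72529 to 274592 TPM in the pancreases. Several A3B livers stood apart from their group in muscle markers, and the highest value of each set is given beside the isoforms it touches. All p-values measure the spread between these samples, and in whole tissue fewer cells of a type cannot be told apart from less RNA per cell.

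The respiratory chain passes electrons from NADH (complex I) and succinate (complex II) through ubiquinone and complex III to cytochrome c and oxygen (complex IV), and the proton gradient that builds up drives ATP synthase (complex V). Each complex combines a few catalytic subunits with many small accessory ones. Apart from complex II, which is wholly nuclear-encoded, the complexes also hold proteins made from the mitochondrial genome, so that both genomes have to be expressed together. Many of the nuclear genes share promoter elements for NRF1, for ETS factors such as GABPA (NRF2), for YY1 and for Sp1. Hepatocytes and acinar cells are both rich in mitochondria.

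The members' promoters, from 250 bases before to 50 bases after the transcription start in RefSeq on GRCm38.p6, were searched on both strands, since most of these genes were called in 1 direction in the lung and, with TMM scaling, in the pancreas. Promoters were found for 69 of the 85 members. The NRF1 palindrome, GCGCA followed by its reverse complement TGCGC, was present in 5 of the 69 (7.25%) and in 1.07% of all 27025 genes with a promoter. These 5 windows are shown because the element is the one best known from this gene family, and the capitals mark it.
Atp5k, chr5:108434415-108434474, minus strand: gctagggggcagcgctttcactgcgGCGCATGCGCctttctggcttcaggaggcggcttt
Cox6a1, chr5:115349086-115349145, minus strand: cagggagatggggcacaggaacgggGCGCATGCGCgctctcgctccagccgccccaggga
Uqcrc1, chr9:108936653-108936697, plus strand: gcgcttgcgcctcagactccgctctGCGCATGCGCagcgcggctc
Atp5g2, chr15:102671055-102671114, minus strand: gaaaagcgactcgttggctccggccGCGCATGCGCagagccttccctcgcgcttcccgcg
Ndufa11, chr17:56717677-56717736, plus strand: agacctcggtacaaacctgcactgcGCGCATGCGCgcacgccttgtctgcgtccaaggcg

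The YY1-type element AAGATGGC was present in 10 of the 69 members (14.5%) and in 3.19% of all genes. Of these 10, 7 belong to complex I, and their windows are shown with the element in capitals because in each it begins 22 to 38 bases after the start. The letters hold ATGG, so that the element may also lie over the first codon.
Ndufc1, chr3:51408906-51408958, minus strand: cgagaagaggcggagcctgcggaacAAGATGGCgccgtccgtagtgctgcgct
Ndufa9, chr6:126849095-126849140, minus strand: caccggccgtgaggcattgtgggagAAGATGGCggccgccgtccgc
Ndufa3, chr7:3617370-3617422, plus strand: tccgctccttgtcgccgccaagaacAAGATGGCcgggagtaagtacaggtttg
Ndufs7, chr10:80249448-80249498, plus strand: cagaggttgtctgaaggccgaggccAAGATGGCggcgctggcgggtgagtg
Ndufs6, chr13:73328433-73328474, minus strand: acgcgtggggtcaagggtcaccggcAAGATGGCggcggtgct
Ndufs4, chr13:114388045-114388084, minus strand: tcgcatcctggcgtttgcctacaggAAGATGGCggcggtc
Ndufb8, chr19:44555393-44555429, minus strand: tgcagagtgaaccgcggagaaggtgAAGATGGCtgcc
The ETS letters CCGGAAG were present in 16 of the 69 members (23.2%) against 9.93% of all genes, and the Sp1 letters GGGCGG in 29 (42.0%) against 38.2%. None of these matches is a measured binding site.

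In the pancreas, where the deposited counts allow the widest comparison, the fold changes of most subunits lay far below the median fold change of all genes. With TMM scaling, which sets the bulk of genes near no change, 63 of the 83 members tested were lower in A3B pancreases and 0 were higher at an adjusted p under 0.05 (edgeR's quasi-likelihood test, Benjamini-Hochberg adjustment). Among all 19142 genes tested 14.9% were called lower and 17% higher. The median log2 fold change was -1.74 over the members and 0.09 over all genes, and the members ranged from -6.02 to 0.55. At an unadjusted p under 0.05, 71 members were lower and 0 higher (19.8% and 23.6% of all genes). Every A3B pancreas lay below both controls for 65 of the 83 members, against 18.9% of all genes, and for no member did every A3B pancreas lie above them, against 25.1%. Cox7b2 and Cox8c, testis-type isoforms, did not pass the filter on low counts.

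**Figure D1:**
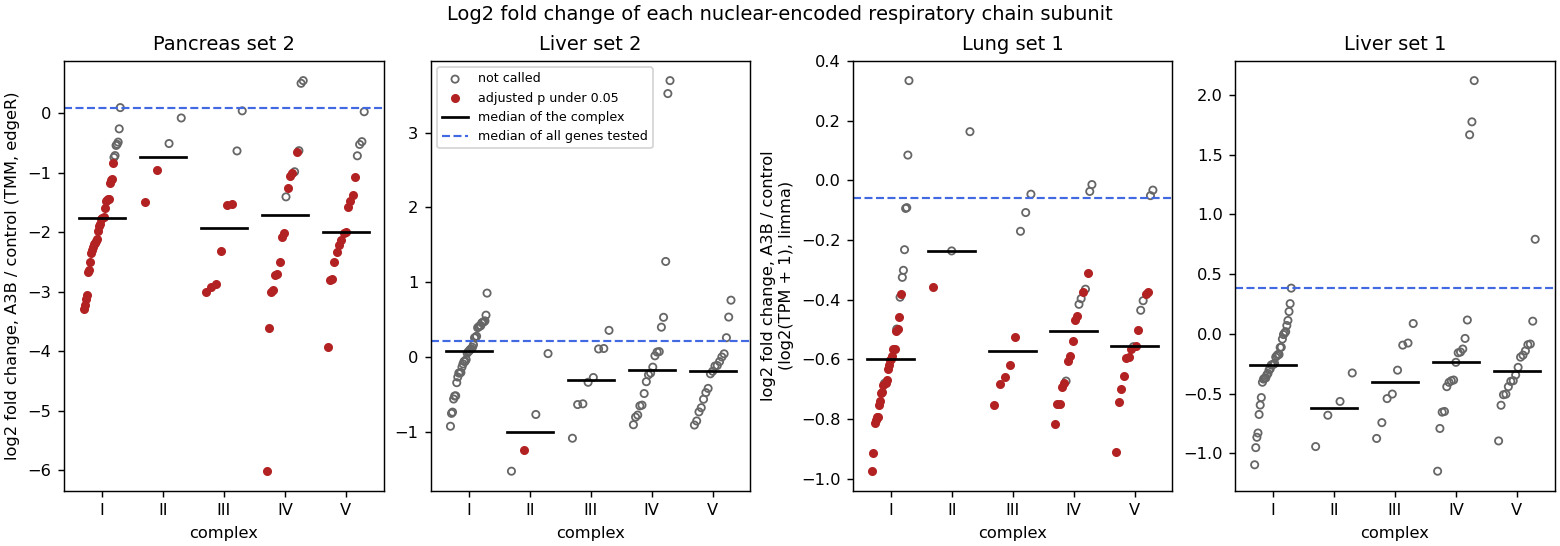
Log2 fold change of each member between A3B and control tissue by complex, in the 4 tissue comparisons; the y axes differ between panels, filled points passed an adjusted p of 0.05, black lines are medians of a complex and dashed lines medians of all genes tested. In the pancreas (TMM scale) 63 of 83 members are filled and all 63 lie below 0, although many turn positive on the total-count and TPM scales, while in the livers 1 and 0 members are filled.

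The size and direction of this difference depended on what the counts were scaled to. In the control pancreases 62.4% and 59.7% of counts fell on the 10 top genes, against 12.1% to 20.6% in the A3B pancreases. Scaling by total counts in place of TMM moved the median of all genes by 2.19 on the log2 scale. Totals without the acinar and most abundant genes moved it by 0.88, and the part of the top genes was not tested. With total counts 38 members were higher and 6 lower, where 70.4% of all genes were called higher and 1.1% lower. With limma on log2(TPM + 1) 41 were higher and 7 lower (83.9% and 1.12% of all genes), and with totals left after the acinar and most abundant genes were removed 4 were higher and 40 lower (39.3% and 4.53%). DESeq2 called 66 lower and 0 higher (17.2% and 18.3% of all genes).

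The place of the members among the genes moved less with the scale, in part by construction, since TMM, DESeq2 and both totals shift all genes of a library alike and TPM alone is a separate measure. Their median lay below that of all genes by 1.83 with TMM (a difference of -1.83 on the log2 scale), and the difference was -1.61 with DESeq2, -1.60 with total counts, -1.63 with reduced totals and -1.08 on TPM. Of the 83 members, 80 lay below the all-gene median with TMM, 79 with either total and 76 on TPM. A fold change below 0 on each of the 5 scales was seen in 21 members, where 3.71% of 13549 genes had one, and 6 members were called lower on each of the 5 scales, where 0.871% of genes were. These 6 were Ndufa1, Ndufb2, Ndufb9, Cox7b, Cox8b and Atp5e, with transcripts of 360 to 776 nucleotides, and no member was called higher on each scale, where 21.4% of genes were.

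**Figure D2:**
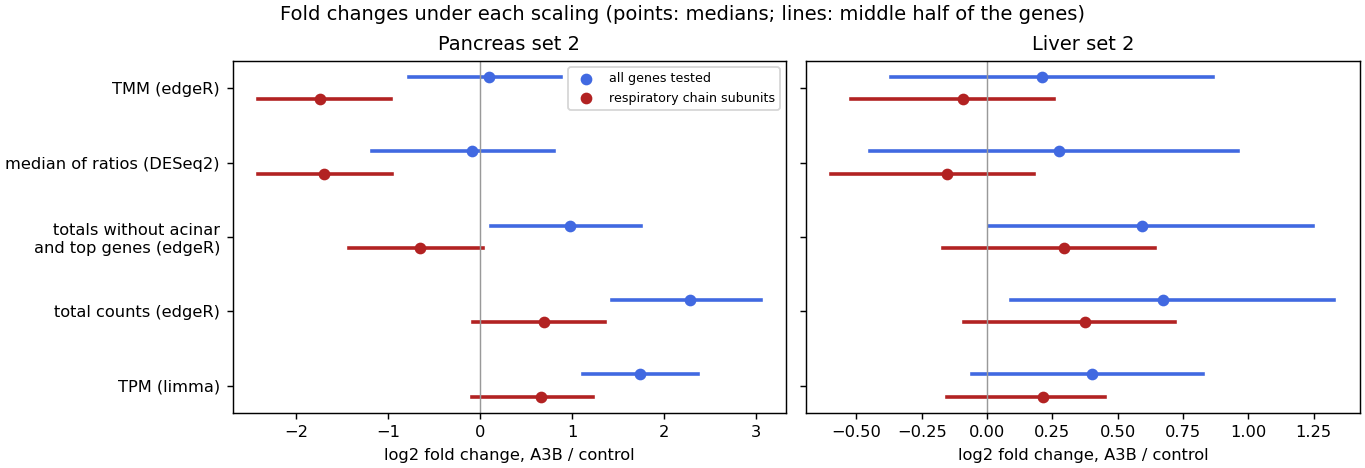
Median (point) and interquartile range (line) of the log2 fold changes of all genes tested and of the respiratory chain subunits under 5 scalings, in pancreas and liver of set 2 with different x axes. The members' median in the pancreas runs from -1.74 with TMM to 0.69 with total counts, a change of sign, and lies below that of all genes in each row, by 1.08 to 1.83.

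As a share of all transcripts the sum over the module did not separate the groups in the pancreas. Summed over members, TPM was 13391 and 13558 in the controls and 10387 to 17506 in the 6 A3B pancreases, which overlap the controls. The median member was higher in A3B without overlap, at 102 to 159 TPM against 72.4 and 86.8 TPM. For all genes above 1 TPM the median log2(TPM + 1) was also higher, at 3.56 to 3.79 against 2.06 and 2.37. On TPM every A3B pancreas lay below both controls for 8 members (1.07% of all genes) and above both for 41 (70.8% of all genes). Cell type markers moved in the same samples. The 12 acinar markers summed to 252026 and 274592 TPM in the controls and 72529 to 189512 TPM in A3B, with 10 of 12 called lower and none at 0, while the sum of 5 ductal markers was 50.5 and 88.9 TPM in the controls and 1176 to 2933 TPM in A3B (3 of 5 called higher). Macrophage markers summed to 48.2 and 552 TPM in controls and 1887 to 5568 TPM in A3B (5 of 6 called higher), and fibroblast markers to 39.6 and 172 TPM against 963 to 1486 TPM (5 of 6). Endocrine markers summed to 3167 and 3198 TPM against 3518 to 12736 TPM, and endothelial markers to 7.08 and 16.2 TPM against 52.9 to 84.8 TPM. T cell, B and plasma cell and adipocyte markers overlapped between the groups. The part of these cells in the subunits' values was not tested.

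In complex I of the pancreas 29 of 36 members were lower on the TMM scale (median -1.77). Accessory subunits were lower in 25 of 29 cases (median -1.99), and the 7 core subunits that carry the flavin and iron-sulphur clusters in 4 (median -0.83). Ndufb9, an accessory subunit of the membrane arm (chr15:58933756-58939488), had 501 and 515 TPM in the controls and 186 to 343 TPM, with a median of 286, in the A3B pancreases. The groups did not overlap, and its TMM log2 fold change was -3.28 (SE 0.32, adjusted p = 0.000175). Ndufa1, which is needed to build the membrane arm (chrX:37187588-37191163), had log2 CPM (counts relative to the TMM-scaled library size) of 6.95 and 8.16 in the controls and 4.07, 4.33 and 4.93 as lowest, median and highest A3B value (log2 fold change -3.22, SE 0.30, adjusted p = 0.000144). Ndufb2, also accessory, had 6.53 and 7.66 in the controls and 3.57 to 4.42 in A3B (-3.13, SE 0.28, adjusted p = 0.000139), the smallest p of the members. These 3 stayed below 0 on each scale, with total-count fold changes of -0.87, -0.80 and -0.72.

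Among the fixed members of complex I, the values were spread widely. Ndufs1, the largest core subunit, an iron-sulphur protein that receives electrons from the flavin (chr1:63143596-63176833), had log2 CPM of 4.88 and 5.04 in the controls and 4.54, 4.68 and 4.96 in A3B. The groups overlapped, and the fold change was -0.26 (SE 0.18, adjusted p = 0.288) with TMM and 1.96 with total counts. Its TPM was 5.17 and 7.72 in controls and 16.2 to 24.7 in A3B. Ndufv1, which binds the flavin, was at -0.83 (adjusted p = 0.0359) with TMM and 1.53 with total counts. Among accessory subunits, Ndufa9 was at -0.74 (adjusted p = 0.06) and 1.54 on the same scales, and Ndufb8, whose protein is often used to follow complex I, at -2.63 (adjusted p = 0.00046) and -0.18.

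Complex II, succinate dehydrogenase, had the smallest median in the pancreas, -0.73 with TMM, and 2 of 4 members were called lower. Sdhd, a membrane anchor that holds the ubiquinone site with Sdhc (chr9:50596357-50603812), had log2 CPM of 7.49 and 7.60 in the controls and 5.75, 6.08 and 6.26 in A3B, without overlap (-1.49, SE 0.21, adjusted p = 0.000727), and a total-count fold change of 0.73. The iron-sulphur subunit Sdhb was at -0.96 (adjusted p = 0.0116) with TMM and 1.34 with total counts. Sdha, the flavoprotein that oxidises succinate (chr13:74322254-74350280), had 6.02 and 6.45 in the controls and 5.86, 6.07 and 6.69 in A3B, which enclose the controls (-0.08, SE 0.25, adjusted p = 0.833, and 2.18 with total counts). The other anchor, Sdhc, was at -0.51 (adjusted p = 0.10) and 1.76.

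In complex III all 5 small subunits were lower in the A3B pancreas with TMM (median -2.88), and 1 of the 3 core and Rieske proteins (median -0.63). The small subunit Uqcrb (-1.54) lay beside the Rieske protein (-1.52), and the difference between the classes was not tested. Uqcrq, a small subunit beside cytochrome b, had log2 CPM of 7.87 and 9.67 in the controls and 5.54, 6.10 and 6.30 in A3B (-3.01, SE 0.38, adjusted p = 0.00041). Uqcr10 had 7.19 and 7.47 against 4.53, 4.95 and 5.37 (-2.32, SE 0.22, adjusted p = 0.000163), and neither gene's groups overlapped. Their total-count fold changes were -0.51 and -0.07. Uqcrc1, the larger core protein (chr9:108936633-108949623), had 5.0 and 5.84 in the controls and 5.21, 5.39 and 5.86 in A3B, which overlap (0.04, SE 0.27, adjusted p = 0.922). Its TPM was 8.31 and 11.6 in controls and 40.9 to 57.7 in A3B. Uqcrc2 was at -0.63 (adjusted p = 0.0532) and the Rieske iron-sulphur protein Uqcrfs1 at -1.52 (adjusted p = 0.00138) with TMM, and at 1.57 and 0.81 with total counts.

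In complex IV 13 of 18 members tested were lower in the A3B pancreas with TMM (median -1.71). Cox7b, a small subunit needed for assembly (chrX:106015700-106022450), had 388 and 410 TPM in the controls and 87.1 to 220 TPM, with a median of 191, in A3B, without overlap (TMM log2 fold change -3.61, SE 0.35, adjusted p = 0.00017, and -1.16 with total counts). Cox6c was at -2.72 (SE 0.28, adjusted p = 0.000201) with TMM and -0.36 with total counts. Cox4i1, the subunit through which ATP and ADP act on the enzyme, had log2 CPM of 9.51 and 10.65 in the controls and 7.67, 8.0 and 8.52 in A3B (-2.08, SE 0.35, adjusted p = 0.00188), and its TPM overlapped between groups (0.33 with total counts). Cox5a and Cox5b, which sit on the matrix side, were at -1.27 (adjusted p = 0.00311) and -1.01 (adjusted p = 0.00698) with TMM and at 1.05 and 1.31 with total counts.

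In complex V 13 of 17 members were lower with TMM (median -1.99), namely 2 of the 5 subunits of the catalytic F1 part (median -0.72) and 11 of 12 of the membrane and stalk parts and other members (median -2.08). Atp5e, the epsilon subunit of the central stalk within F1 (chr2:174461072-174464105), had 1456 and 2033 TPM in the controls and 294 to 955 TPM, with a median of 687, in A3B. No A3B pancreas reached a control, and the fold change was -3.94 (SE 0.45, adjusted p = 0.000308) with TMM and -1.43 with total counts. Atp5b, the catalytic beta subunit, had log2 CPM of 8.56 and 9.16 in controls and 7.75, 8.13 and 8.60 in A3B (-0.72, SE 0.28, adjusted p = 0.0783) and a total-count fold change of 1.58. Atp5a1, the alpha subunit, was at -0.48 (adjusted p = 0.222) and 1.86, the gamma subunit Atp5c1 at -1.48 (adjusted p = 0.00114) and 0.80, and the peripheral stalk subunit Atp5o at -2.34 (adjusted p = 0.000712) and 0.12. The symbol Atp5o covers 2 overlapping gene models in the annotation, whose values were summed.

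**Figure D3:**
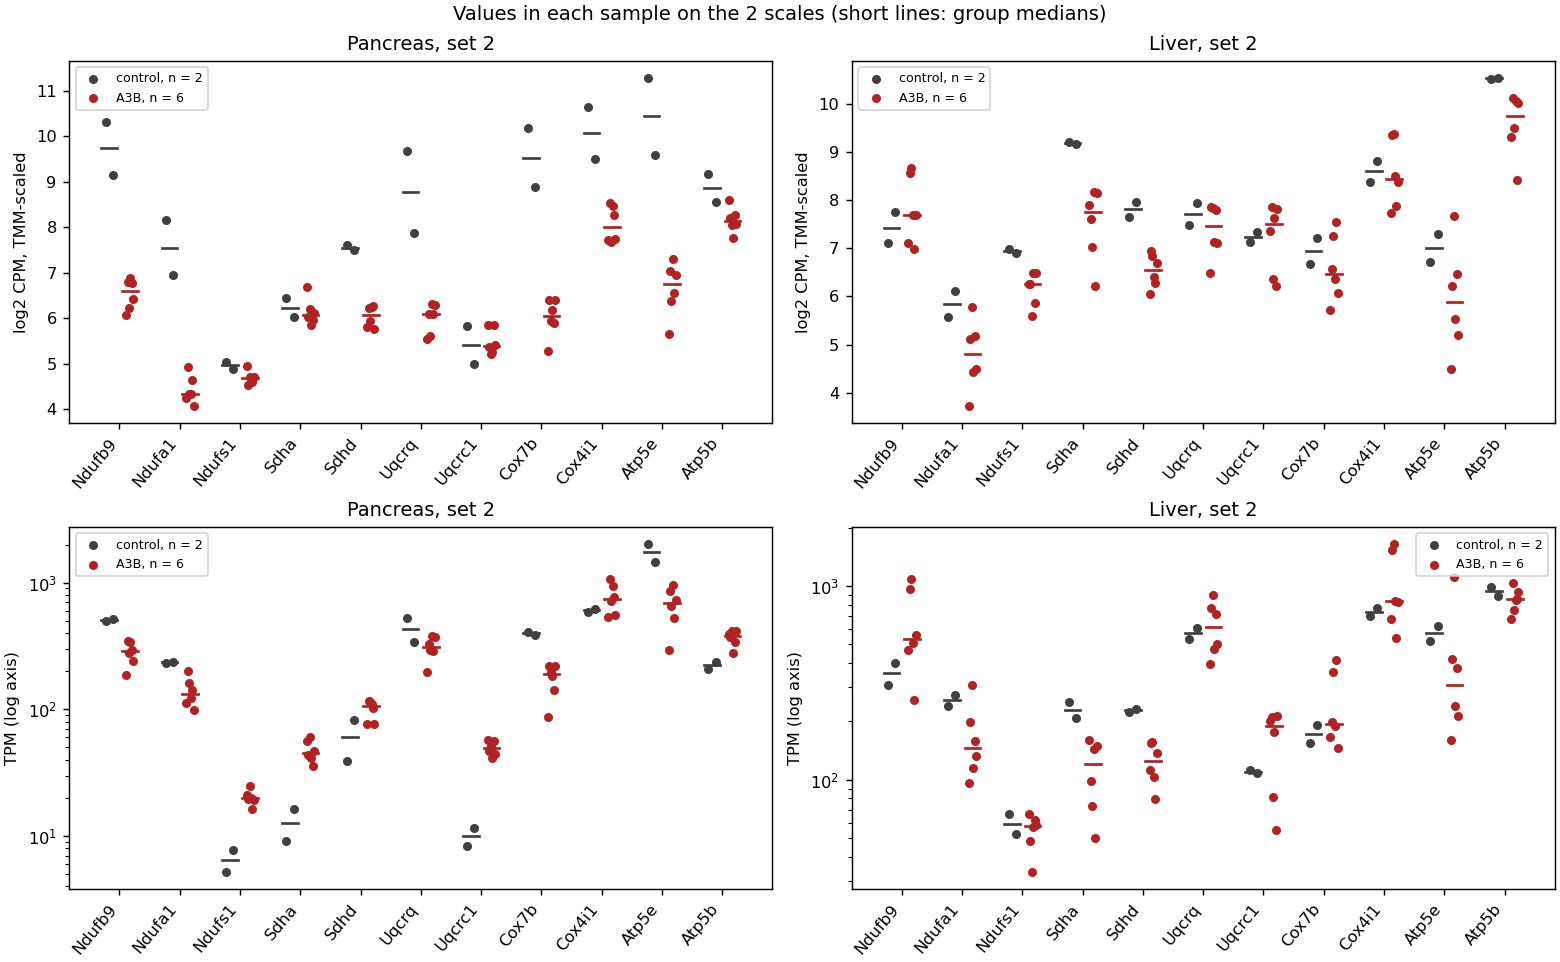
Values of 11 members in each pancreas and liver of set 2, as TMM-scaled log2 CPM (top) and TPM on a log axis (bottom), with control points in grey, A3B points in red and short lines at group medians; the y axes differ between panels. In the pancreas Ndufb9, Ndufa1, Cox7b and Atp5e lie below the controls on both scales, whereas Sdhd and Cox4i1 do so on the TMM scale alone and Ndufs1, Sdha and Uqcrc1 overlap the controls on the TMM scale and lie above them in TPM.

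These differences among the members ran along transcript length. The median length of the members, weighted by TPM, was 680 nucleotides. In the pancreas the members under 600 nucleotides had a median TMM log2 fold change of -2.50 (30 of 31 lower), those of 600 to under 900 -1.93 (24 of 30), those of 900 to under 1500 -0.97 (7 of 14) and those of 1500 or more -0.56 (2 of 8). All genes in the same bins had medians of -0.81, -0.66, -0.18 and 0.22, and 24.2%, 31.2%, 21.6% and 10.7% of them were called lower. Spearman's rho between length and fold change was 0.64 across the 83 members and 0.17 across all genes, given as a description, since genes in the same libraries share their depth and scaling. Set against the median of their own length bin, the members were still lower, by a median difference of -1.30, with 75 of 83 below. Whether length itself has a part in the values was not tested.

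**Figure D4:**
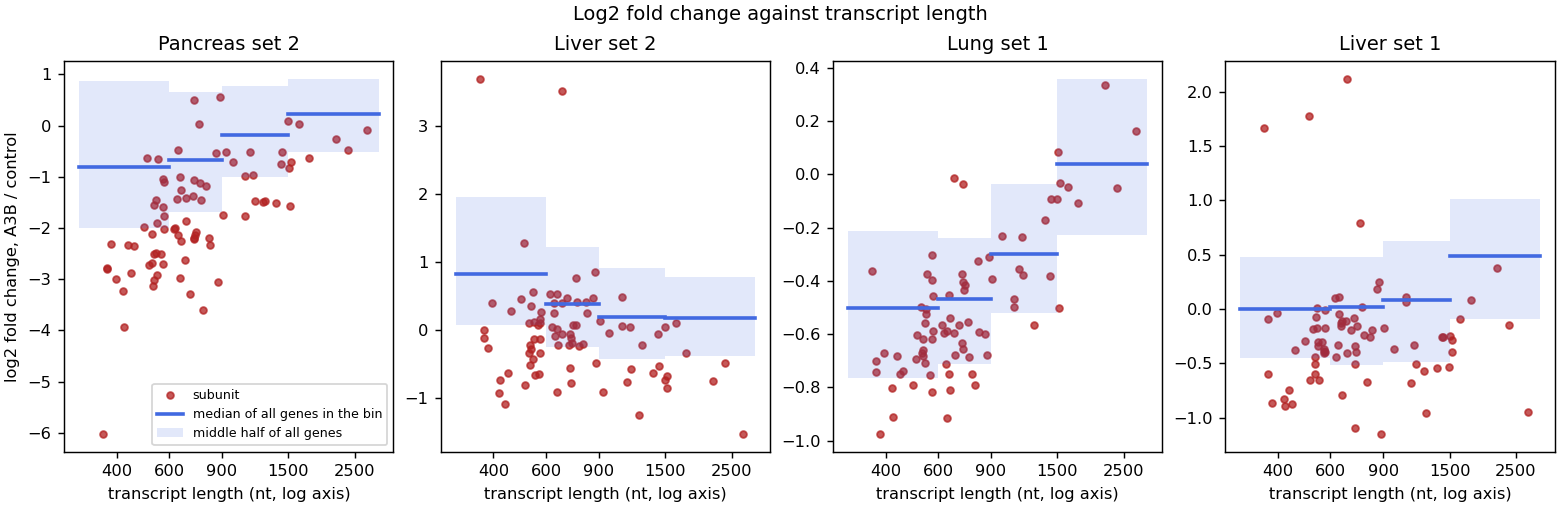
Log2 fold change of each member against transcript length (log axis) in the 4 tissue comparisons, with the median and interquartile range of all genes in 4 length bins; the y axes differ between panels. In pancreas and lung the shortest subunits lie lowest (rho 0.64 and 0.65), on the TMM scale and on log2(TPM + 1), and in the livers rho was -0.17 and 0.09.

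In the liver of set 2, where 2.41% of 17376 genes were called lower and 1.25% higher, 1 of 83 members was called lower and 0 higher. The members' median was -0.09 and that of all genes 0.21. At an unadjusted p under 0.05, 8 members were lower and 0 higher (9.88% and 13.1% of all genes). DESeq2 called Sdha, Sdhd and Cox5a lower and the muscle isoform Cox6a2 higher (5.91% of all genes were lower and 7.19% higher), and limma on TPM called 1 member, Atp5s, higher (4.46% of all genes). With total counts 0 members were called by edgeR, where 1.39% of genes were lower and 5.05% higher, and likewise 0 with reduced totals (1.28% and 3.45%). The A3B livers lay below both controls for 15 members (12.9% of all genes) and above both for 1 (15% of all genes), again Atp5s. This gene, for a factor B-like protein not usually counted as a synthase subunit, had 3.66 and 4.87 TPM in the controls and 10.8 to 14.4 TPM in A3B. On TPM they lay below both controls for 5 members (5.42% of all genes) and above both for 17 (24.3%).

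Complex II had the lowest median of the liver, -1.01, and the member called was Sdhd. Its log2 CPM was 7.65 and 7.97 in the controls and 6.04, 6.55 and 6.95 in the 6 A3B livers, without overlap (-1.25, SE 0.29, adjusted p = 0.0471). It passed the threshold with DESeq2 too, and not without the filter (-1.26) nor with limma on TPM, total counts or reduced totals, where it stayed between -0.91 and -0.79, nor when A3B liver 44, 125, 137 or 153 or either control was left out. With 1 of these libraries out its fold change was between -1.49 and -1.16. The calls over all genes in either direction went from 636 to between 73 and 503 in these fits. Sdha had 9.16 and 9.20 in the controls and 6.21, 7.75 and 8.16 in A3B, again without overlap (-1.53, SE 0.46, adjusted p = 0.0906). Sdhc was at -0.77 (SE 0.33, adjusted p = 0.202). Sdhb, the fourth subunit, had 7.61 and 7.68 against 7.08, 7.65 and 8.09, and its fold change of 0.05 (SE 0.35, adjusted p = 0.954) was -0.03 with DESeq2. In complex IV, Cox5a had 7.01 and 7.38 in the controls and 5.65, 6.38 and 6.53 in A3B (-0.91, SE 0.27, adjusted p = 0.0936).

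The F1 part of complex V had a median of -0.74 in this liver, with no member called, and complex I a median of 0.08. Ndufs1 was at -0.75 (SE 0.28, adjusted p = 0.153) and Atp5b at -0.86 (SE 0.45, adjusted p = 0.288). Summed member TPM was 19626 and 21148 in the controls and 18069 to 31113 in the A3B livers, which enclose the controls. Beside the lower hepatocyte marker sum of the A3B livers given above (1 of 8 markers called lower), 5 adipocyte markers summed to 11.2 and 16.4 TPM in the controls and 27.1 to 256 TPM in A3B, with 0 of 4 tested called by edgeR. The part of these cells was not tested. The highest sum was in A3B liver 49, which also had 15.7% of its TPM in the mitochondrially encoded genes. That share was 29.5% in A3B liver 48 and 5.11% to 8.80% in the other 6 livers, and its part in the values was not tested.

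To ask whether the A3B difference itself differed between pancreas and liver, the 2 were subtracted in 1 model. The difference was called lower in the pancreas for 39 of 83 members and higher for 0, where 5.02% of 19927 genes were called lower and 6.87% higher. The members' median was -1.67 and that of all genes 0.03. Most livers and pancreases come from the same mice, and with mouse as a block 24 members were called lower (median -1.44, all genes 0.16), while the calls over all genes in either direction went from 2369 to 1615. By complex the 39 called without the block were 21 of 36 in complex I, 0 of 4 in complex II, 4 of 8 in complex III, 5 of 18 in complex IV and 9 of 17 in complex V. The smallest p-values were those of Ndufb4, an accessory subunit of the membrane arm (-3.75, SE 0.59, adjusted p = 0.00209), Ndufb9 (-3.58, SE 0.67, adjusted p = 0.0057) and Atp5h, of the peripheral stalk (-2.38, SE 0.45, adjusted p = 0.00616), all of which remained below 0 on each of the 5 scales. With total counts 18 members were higher and 3 lower (39.4% and 1.12% of all genes), with limma on TPM 22 and 4 (56.6% and 1.03%). The count also rested on single controls, since it was 1 without control liver 45, 6 without control pancreas 45 and 11 without control liver 168. Over all genes the calls in either direction were 546, 710 and 696 in these fits, and the members' median minus that of all genes was -1.41, -1.08 and -1.89.

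In the lung, the subunits were moderately lower in A3B mice, for which the labels give 10 days of dox against 15 days for the controls. Of 79 members tested 53 were called lower and 0 higher (limma on log2(TPM + 1)), where 20.8% of 13651 genes were called lower and 16.1% higher. The median log2 fold change was -0.56 over the members, with a range of -0.97 to 0.33, and -0.06 over all genes. All 3 A3B lungs lay below all 3 controls for 61 members (30.6% of all genes) and above them for 0 (23.3%). The 6 members not tested lay under the filter of 1 TPM. Of these Ndufs7 and Atp5d are listed at 0 in all samples of set 1 and Ndufs5 at 0 to 0.0187 TPM, although their TPM in the set 2 livers was 79.8 to 374, so that a listed 0 may be a missing estimate and says nothing of their expression. The TPM of different genes in set 1 were not used to rank genes.

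Complex I had 24 of 34 members lower in the lung, with 22 of 28 accessory subunits (median -0.63) and 2 of 6 core subunits (median -0.16). Ndufc1, a small accessory subunit whose YY1-type window is shown above, had 40.5, 30.7 and 45.2 TPM in the controls and 16.2, 21.2 and 19.9 TPM in A3B (-0.97, SE 0.17, adjusted p = 0.00797). Ndufs4, whose window is also shown and whose loss causes Leigh-like disease, had 143, 104 and 150 TPM against 58.4, 69.9 and 80.2 TPM (-0.91, SE 0.18, adjusted p = 0.0103). The groups did not overlap for either gene. The core subunit Ndufs8, which carries 2 of the iron-sulphur clusters, fell from 134 to 143 TPM in the controls to 69.4 to 94.2 TPM (-0.79, SE 0.13, adjusted p = 0.00629), and the accessory subunits Ndufa5 and Ndufa11 fell by 0.79 (SE 0.13, adjusted p = 0.00661) and 0.71 (SE 0.11, adjusted p = 0.00627). Ndufs1 in turn had 24.2, 27.7 and 17.2 TPM in the controls and 26.7, 33.6 and 26.4 TPM in A3B, which overlap (0.33, SE 0.19, adjusted p = 0.202).

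In complex II of the lung 1 of 3 tested members was lower, Sdhc, with 117 to 124 TPM in the controls and 84.7 to 107 TPM in A3B (-0.36, SE 0.11, adjusted p = 0.0455). Sdha was at 0.16 (SE 0.14, adjusted p = 0.397). In complex III all 5 small subunits were lower (median -0.66) and 0 of the 3 core and Rieske proteins (median -0.11). Uqcrq had 88.1, 72.8 and 107 TPM in the controls and 49.2, 65.7 and 52.7 TPM in A3B (-0.66, SE 0.17, adjusted p = 0.0254), and Uqcrc1 53.6, 65.4 and 54.2 TPM against 50.1, 69.1 and 49.8 TPM (-0.05, SE 0.16, adjusted p = 0.838).

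In complex IV 12 of 18 and in complex V 11 of 16 members were lower in the lung. Ndufa4 had 602, 420 and 645 TPM in the controls and 277, 329 and 327 TPM in A3B (-0.82, SE 0.18, adjusted p = 0.0147), and Cox4i1 was at -0.42 (SE 0.14, adjusted p = 0.0554). Atp5e had 555, 366 and 692 TPM in the controls and 272, 267 and 290 TPM in A3B, without overlap (-0.91, SE 0.22, adjusted p = 0.0212). Atp5b was at -0.03 (SE 0.14, adjusted p = 0.874). By length the lung medians were -0.67, -0.59, -0.37 and -0.04 from the shortest to the longest bin (24 of 30, 22 of 29, 6 of 12 and 1 of 8 lower), against -0.50, -0.47, -0.30 and 0.04 for all genes in the same bins. Of all genes in these bins 44.3%, 53.5%, 38.3% and 13.2% were called lower. Within its bin the median member lay lower by 0.11 (a difference of -0.11), with 56 of 79 below, and the part of length was not tested. In the same lungs 6 macrophage markers summed to 1341 to 1423 TPM in the controls and 1056 to 1230 TPM in A3B, with 1 of 6 called lower, and 6 lung epithelial markers to 19267 to 20619 TPM and 18227 to 19810 TPM, with 1 of 6 called lower. B and plasma cell markers were at 68.2 to 316 TPM and 40.5 to 110 TPM, which overlap. Adipocyte markers were at 118 to 305 TPM and 208 to 1036 TPM, which overlap too, and A3B lung 70 stood apart with brown adipocyte markers at 56.1 TPM, against 0.567 to 2.35 TPM in the other lungs. The part of these cells was not tested. That lung also had 119 TPM of Cox8b and 75.2 TPM of Cox7a1, where the other A3B lungs had at most 23.7 and 29.0 TPM and the controls 33.7 to 73.7 and 39.0 to 91.2 TPM. The number called was 14 without A3B lung 69, 23 without control 87, 24 without control 91 and 30 without A3B lung 70. In these 4 fits the members' median was -0.50, -0.53, -0.47 and -0.62, and the calls over all genes in either direction went from 5029 to 2998, 4122, 3288 and 3087.

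In the liver of set 1, where 1.86% of 11507 genes were called lower and 6.07% higher, limma called 0 of 79 members in either direction. At an unadjusted p under 0.05, 7 members were lower and 0 higher (8.12% and 24.5% of all genes). The median was -0.29 over members and 0.39 over all genes, with 75 of 79 members below the latter. The 3 A3B livers lay below all 3 controls for 13 members (10.3% of all genes) and above them for 2 (28.5%). Ndufa4l2, a paralogue of Ndufa4 that is induced by hypoxia in other tissues, had 2.47, 3.58 and 3.42 TPM in the controls and 0.79, 0.35 and 1.65 TPM in A3B, without overlap (-1.15, SE 0.34, adjusted p = 0.0721). Ndufb10, an accessory subunit, had 547, 934 and 832 TPM against 372, 251 and 463 TPM, also without overlap (-1.10, SE 0.36, adjusted p = 0.0906). Uqcr11 was at -0.88 (SE 0.35, adjusted p = 0.137). Complex II again had the lowest median of this liver (-0.62), with Sdha at -0.94 (SE 0.47, adjusted p = 0.206), Sdhc at -0.68 (SE 0.28, adjusted p = 0.141), Sdhd at -0.57 (SE 0.27, adjusted p = 0.187) and Sdhb at -0.33 (SE 0.42, adjusted p = 0.602). Sdhd was at 1.49 to 3.54 TPM in these livers, so that its fold change is understated. Sdha was at 1274 to 6369 TPM here and 50.2 to 252 TPM in the livers of set 2, and the reason was not tested. In these livers the hepatocyte markers summed to 5600 to 6917 TPM in the controls and 2689 to 4888 TPM in A3B, and the adipocyte markers to 25.2 to 27.9 TPM and 142 to 742 TPM. Neither overlapped between the groups, and their part was not tested.

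The A3B difference in lung minus that in liver was called for 0 of 80 members by limma, where 8.81% of 13477 genes were called lower and 1.94% higher. At an unadjusted p under 0.05, 3 members were lower and 1 higher (23.9% and 6% of all genes), and with mouse as a block 1, Atp5s, was called lower, where 2607 of the 13477 genes were called in either direction. The members' median was -0.19 and that of all genes -0.39. The smallest p-values were those of Atp5s (-1.35, SE 0.41, adjusted p = 0.0616), Ndufa4l2 (0.84, SE 0.33, adjusted p = 0.122) and Ndufs4 (-1.03, SE 0.43, adjusted p = 0.143).

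Cytochrome c oxidase has isoforms for skeletal muscle and heart (Cox6a2, Cox7a1, Cox8b), for lung and hypoxia (Cox4i2) and for testis (Cox6b2), each with a broadly used partner. In control lungs Cox6a2 was at 155, 174 and 299 TPM, whereas in the control livers of both sets it was at 0.169 to 1.07 TPM. Neither Cox6a2 (-0.01, SE 0.36, adjusted p = 0.981) nor Cox7a1 (-0.67, SE 0.50, adjusted p = 0.332) was called in the lung, while of their partners Cox7a2 was lower (-0.75, SE 0.19, adjusted p = 0.0226) and Cox6a1 was at -0.40 (SE 0.13, adjusted p = 0.0534). The 6 muscle markers summed to 44.1 to 175 TPM in the lungs and 0.0103 to 0.847 TPM in all control livers. The 4 heart muscle markers summed to 201 to 511 TPM in the lungs and 0.477 to 1.36 TPM in all control livers. Cox4i2 was at 15.7 to 19.5 TPM in the lungs and 0.0712 to 0.307 TPM in the livers of the same set, apart from 2.41 TPM in A3B liver 28.

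Among the livers, muscle isoforms were highest in single A3B samples. Cox8b was at 0.175 to 5.08 TPM in the 6 A3B livers of set 2 and at 0.0702 and 0.129 TPM in the controls, and at 0.591 to 12.7 TPM in the 3 A3B livers of set 1 and 0 to 0.129 TPM in the controls, so that the groups did not overlap in either set as TPM, although they overlapped in set 2 on the TMM scale. A3B liver 28 of set 1 had 64.5 TPM of Cox6a2 and 12.7 TPM of Cox8b, with muscle markers at 258 TPM, where the other 2 A3B livers had at most 2.54 and 0.656 TPM. A3B liver 48 of set 2 had 7.07 TPM of Cox6a2 and 5.08 TPM of Cox8b with muscle markers at 62.6 TPM. These markers had a mean of 15.7 and a median of 0.381 TPM over the A3B livers of set 2. Cox6a2 was also high in A3B livers 49 and 125, at log2 CPM of 0.23 and 0.29, against -3.43 to -2.30 in A3B livers 44, 137 and 153. In that liver set the fold changes of Cox6a2 and Cox8b, 3.52 (SE 1.65, adjusted p = 0.237) and 3.70 (SE 1.68, adjusted p = 0.223), were not called by edgeR. A3B liver 23 of set 1 had 115 TPM of Cox6b2 with muscle markers at 1.92 TPM, against 2.29 to 6.65 TPM of Cox6b2 in the other 5 livers.

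Of the muscle isoforms in the pancreas, Cox7a1 turned on control 168. That control had 36.2 TPM of Cox7a1 and 8.25 TPM of Cox8b with muscle markers at 30.1 TPM, while control 45 had 0.428 and 2.02 TPM with markers at 2.27 TPM. The A3B pancreases had 4.84 to 9.85 TPM of Cox7a1 and 0 to 1.40 TPM of Cox8b. Cox8b (chr7:140898945-140900446) had a TMM fold change of -6.02 (SE 1.03, adjusted p = 0.0022), the lowest of the members, and each control lay above each A3B pancreas. Cox7a1 was at -3.00 (SE 0.76, adjusted p = 0.0152), and at 0.89 without control 168. The part of muscle tissue in these values was not tested. Of the other paralogues, Cox7a2 was at -2.97 (adjusted p = 0.000318) and Cox7a2l at -0.98 (adjusted p = 0.0548) with TMM. Of the summed TPM of Cox7a1, Cox7a2 and Cox7a2l, Cox7a2l made up 24.7% ± 0.788 (SD, n = 2) in controls and 55.4% ± 9.53 (SD, n = 6) in A3B. Since Cox7a2l is not usually counted as a subunit, this is not a share among subunit isoforms alone. The 3 genes for the c subunit of the ATP synthase ring encode the same mature protein, and Atp5g1 was at -1.99, Atp5g2 at -1.07 and Atp5g3 at -1.38 with TMM (adjusted p of 0.000781, 0.0318 and 0.00326) and at 0.44, 1.35 and 0.99 with total counts. Ndufa4l2 was at 1.09 and 1.12 TPM in the controls and 5.62 to 11.8 TPM in A3B, with a TMM fold change of 0.55 (SE 0.39, adjusted p = 0.304).

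**Figure D5:**
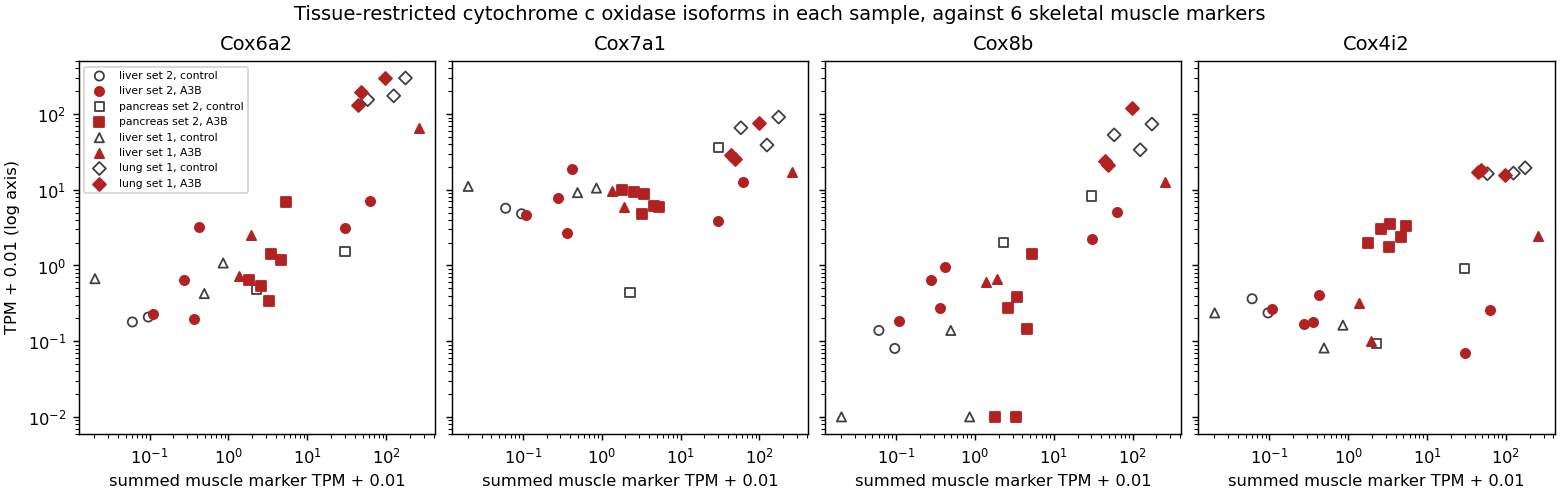
TPM of 4 tissue-restricted cytochrome c oxidase isoforms in each sample against the summed TPM of 6 skeletal muscle markers (both log axes, 0.01 added), with control samples open, A3B samples filled and 1 marker shape per tissue and set. The lungs and A3B liver 28 (muscle markers at 258 TPM) lie at the right, and Cox6a2 reaches 299 TPM in a control lung and 64.5 TPM in that liver.

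Other genes of the pathway were taken from lists by function. The 13 mitochondrially encoded subunits, all on the polycistronic transcripts of the mitochondrial genome, were lower in the A3B pancreas in 13 of 13 cases with TMM (median -3.30, range -3.79 to -2.51) and in 6 of 13 with total counts (median -0.78), against 14.9% and 1.1% of all genes, and 0 were called in the liver of set 2 by edgeR, where the median was 0.90 and none had an unadjusted p under 0.05. They were not analysed in set 1. Of 48 assembly factors tested in the pancreas, 24 were lower and 1 higher with TMM (median -0.64), where 14.9% and 17% of all genes were. With total counts 0 were lower and 32 higher (median 1.66), where 1.1% and 70.4% of all genes were. In the lung 26 of 44 were lower and 1 higher (median -0.51), where 20.8% of all genes were lower and 16.1% higher (median -0.06).

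Cytochrome c (Cycs), which carries electrons to complex IV, and cytochrome c1 (Cyc1), a catalytic subunit of complex III whose symbol the rule does not take in, were both lower in the A3B pancreas with TMM, at -1.04 and -1.49, and higher with total counts, at 1.26 and 0.82. Where 14.9% of all genes were called lower with TMM, ubiquinone synthesis genes were lower in 5 of 10 cases (median -0.83) and citric acid cycle genes in 5 of 14 (median -0.41). With total counts, where 70.4% of all genes were called higher, 7 of 10 and 14 of 14 were higher and 0 lower (medians 1.44 and 1.85). In the lung the citric acid cycle genes had a median of 0.05 with 0 of 14 called by limma (0 lower and 1 higher at an unadjusted p under 0.05). Among 12 regulators of mitochondrial biogenesis 3 were lower in the pancreas with TMM, namely the nuclear receptor Esrra (-0.86) and the mitochondrial transcription factors Tfb1m (-1.43) and Tfb2m (-0.56), and 0 were higher. These 3 were at 1.34, 0.82 and 1.65 with total counts, where 0 of the 12 were lower and 10 higher.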

How the data were processed

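RNA-seq of liver, pancreas and lung was analysed in 28 samples. For set 2 the authors deposited, per transcript, estimated counts, TPM and the transcript length, from kallisto against mouse transcripts (mm10), and for set 1 the authors deposited TPM per gene, made from reads aligned to mm10 with STAR and, per the column names, deduplicated. The submitters' processing notes name the builds GRCm38 and mm10. In set 2, a gene was found in GENCODE for 116728 of 119414 transcripts, and estimated counts and TPM were summed per gene and counts rounded. Estimated counts of transcripts with no gene took 0.225% to 1.46% of a library and were left out.

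Set 2 was tested with edgeR 4.0.16 (TMM, quasi-likelihood, filterByExpr) per tissue, and pancreas minus liver as an interaction. Set 1 was tested with limma 3.58.1 on log2(TPM + 1) for genes averaging 1 TPM or more, so fold changes of low genes are understated. The threshold was a Benjamini-Hochberg adjusted p of 0.05 over all genes tested. DESeq2 1.42.0 was an alternative, and both scripts were tested on simulated data. The other alternatives, listed in the closing section, were total counts, totals without the acinar markers and the genes among the 10 most abundant of any sample, limma on TPM, another pseudocount, quantile normalization, no filter, each library left out and mouse as a block. Length is the TPM-weighted transcript length.

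Members and lists were chosen with earlier results of these data known. Members described by name were catalytic or much used subunits of each complex, of which 1 is not reported here, the paralogue families, and per comparison the 3 with the smallest p and the 2 called with the largest fold change in each direction. Ndufb4, Ndufb9 and Atp5h are named through the interaction.

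Livers and pancreases of mice 44, 49, 125, 137, 153, 45 and 168 come from the same animals, as do liver and lung of mice 70 and 91, per the sample titles. Over 16748 genes, deviations from the group means of liver and pancreas correlated at 0.24 (mouse 44), -0.02 (49), 0.29 (125), 0.29 (137) and 0.11 (153). Pairs of different A3B mice ran up to 0.35 (liver 49 with pancreas 53), so that the pairing rests on the animal numbers. No samples were identical, and no columns were left unused. R 4.3.3 and Python 3.11.15 were used. RefSeq promoters were matched by symbol, 2 of the 69 by a synonym.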

Additional observations from a re-analysis of the deposited data

Results flagged for a closer look

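Of 52 member values checked for a sample apart from its group in the A3B groups of 6, 3 had 1 sample far from the others, where chance marks about 1 group in 20. All 3 were high values in A3B pancreases, as TPM. Atp5o was at 264.241 in A3B pancreas 53 and at 165 to 187 in the other 5. Cox6a2 was at 6.974 in A3B pancreas 49 and at most 1.39 in the others, and Cox8b was at 1.40031 in the same pancreas and at most 0.374 in the others. The muscle markers of A3B pancreas 49 summed to 5.35 TPM, the highest of the 6 A3B pancreases.

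The A3B difference itself differed between pancreas and liver in set 2, by the interaction test of edgeR on the TMM scale, for 11 of the 39 members described, where 5.02% of all genes were called lower and 6.87% higher. Ndufb4, Ndufb9 and Atp5h are described because of their p-values in this same test. In complex I these were Ndufb4 (-3.75), Ndufb9 (-3.58) and Ndufb8 (-2.85), in complex III Uqcrq (-2.57), in complex IV Cox7b (-3.20), Cox7a2 (-2.81), Cox5b (-1.37) and Cox8b (-9.57), and in complex V Atp5o (-2.42), Atp5h (-2.38) and Atp5g1 (-1.86), each as the log2 fold change in pancreas minus that in liver. Cox5b changed sign with total counts (0.34) and on TPM (0.14), and Atp5g1 on TPM (0.06). With mouse as a block Uqcrq (-2.22) and Cox5b (-1.30) were no longer called. Over all members the 39 called fell to 1 without control liver 45, 6 without control pancreas 45 and 11 without control liver 168. The value of Cox8b rests on low levels, with 8.25 TPM in control pancreas 168, the highest of the pancreases and livers of set 2.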

How the results depend on the processing

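Counts of members called in the pancreas turned with the scaling: 63 lower and 0 higher with TMM became 6 and 38 with total counts (median 0.69, minus that of all genes -1.60), 7 and 41 with limma on TPM (0.67 and -1.08) and 40 and 4 with totals without abundant and acinar genes (-0.66 and -1.63), while DESeq2 gave 66 and 0 (difference -1.61), no filter 62 and 0, and leaving out A3B pancreases 44 and 137, whose genotype label differs, 61 and 0. Leaving out 1 library gave 46 (without control 45) to 67 lower, medians of -2.05 to -1.21 and differences from all genes of -2.37 to -1.38. Sign changes are listed for the members described that were called on TMM, on the other scale or on both, and others changed sign without a call on either. In the pancreas with total counts they were Ndufs1 1.96, Ndufv1 1.53, Ndufa9 1.54, Sdha 2.18, Sdhb 1.34, Sdhc 1.76, Sdhd 0.73, Uqcrc2 1.57, Uqcrfs1 0.81, Cox4i1 0.33, Cox5a 1.05, Cox5b 1.31, Atp5a1 1.86, Atp5b 1.58, Atp5c1 0.80, Atp5o 0.12, Cox6a1 1.27, Cox6b1 0.42, Cox7a2l 1.42, Cox8a 1.60, Atp5g1 0.44, Atp5g2 1.35 and Atp5g3 0.99. With limma on TPM they were Ndufs1 1.52, Ndufv1 0.67, Ndufa9 1.52, Sdha 1.84, Sdhb 1.34, Sdhc 1.35, Sdhd 0.78, Uqcrc2 1.61, Uqcrfs1 0.80, Cox4i1 0.29, Cox5a 1.06, Cox5b 1.13, Atp5a1 1.53, Atp5b 0.71, Atp5c1 0.84, Atp5o 0.0661, Cox6a1 1.29, Cox6b1 0.49, Cox7a1 0.18, Cox7a2l 1.36, Cox8a 1.65, Atp5g1 0.44, Atp5g2 1.22 and Atp5g3 0.99. With the reduced totals they were Ndufv1 0.19, Sdha 0.86, Sdhb 0.0103 and Cox8a 0.27, and Cox7a1 ran from -3.93 without control 45 to 0.89 without control 168.

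For pancreas minus liver, 39 lower and 0 higher became 3 and 18 with total counts (median 0.13), 4 and 22 with limma on TPM (0.27, difference from all genes -1.12), 22 and 2 with reduced totals (-1.19), 48 and 0 with DESeq2 and 33 and 0 with no filter. With mouse as the replicate block 24 were lower and 0 higher. Leaving out 1 library gave 1 (without control liver 45), 6 (without control pancreas 45), 11 (without control liver 168) and at most 44 lower, medians of -1.95 to -0.97 and differences of -2.33 to -1.08. Under the same rule, sign changes with total counts were Ndufa9 1.16, Sdhd 1.52, Uqcrc2 1.47, Uqcrfs1 1.01, Cox5a 1.51 and Cox5b 0.34, and with limma on TPM Ndufa9 1.26, Sdhd 1.69, Uqcrc2 1.64, Uqcrfs1 1.11, Cox5a 1.64, Cox5b 0.14, Atp5c1 1.05, Atp5g1 0.0622 and Atp5g2 1.14.

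In the liver of set 2, 1 member lower and 0 higher became 3 and 1 with DESeq2, 0 and 1 with limma on TPM, and 0 and 0 with no filter, with total counts (median 0.38) and with reduced totals (0.29). Leaving out 1 library gave 0 to 3 lower (2 without A3B liver 48, 3 without A3B liver 49). In the lung, pseudocount 0.1, no filter and quantile normalization gave 53, 43 and 54 lower, and leaving out 1 library 14 to 57 (14 without A3B lung 69, 23 without control 87, 24 without control 91 and 30 without A3B lung 70), with medians of -0.66 to -0.47 over the 6 such fits. In the liver of set 1 the count stayed at 0 except for 1 without A3B liver 70 (Ndufa4l2), and was 0 without control 11, labelled with both transgenes, and with no filter the difference from all genes was -0.38. For lung minus liver, 0 became 1 lower with the replicate block and up to 2 lower and 1 higher with 1 library left out, and quantile normalization moved the difference from all genes from 0.19 to -0.15. The block ended the calls of Uqcrq (-2.22) and Cox5b (-1.30) for pancreas minus liver, brought that of Atp5s (-1.27) for lung minus liver, and changed no other call among the members described. The causes of these changes were not tested.

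The 2 controls per tissue in set 2 limit each comparison there, and a fold change of 2 on the log2 scale in simulated data with a dispersion of 0.25 was recovered for 28.5% of genes in liver and 11% in pancreas, against 100% at a dispersion of 0.05. The square root of the common dispersion fitted to the data was 0.570 in liver and 0.468 in pancreas. Only 200 genes were changed in each simulation, so that these shares do not give the power in the data. Short subunits share sequence with processed pseudogenes, which estimated counts can split between copies. Set 1 gives no counts, so its depth could not be weighed.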
